A study of Danio rerio with 24 samples.

Results

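The transcripts described here encode the proteins that shorten, uncap, degrade, silence or protect mRNA and that clear maternal mRNA from the early embryo. They were chosen by gene symbol among protein-coding genes: the subunits of the CCR4-NOT deadenylase, its BTG and TOB adaptors, PAN2, PAN3 and PARN, the decapping factors, the LSM proteins and the XRN exonucleases. The m6A readers and mRNA stabilizers, the ZFP36, Pumilio and KHSRP proteins, the Argonaute, TNRC6 and Dicer proteins of small RNA silencing, and the factors of nonsense-mediated decay completed the set. This gave 81 of the 31901 genes in the tables, of which 25431 are protein coding, and they lie on 22 chromosomes.

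RNA was sequenced from whole wild-type zebrafish embryos in a study of how tetrabromobisphenol A (TBBPA), a brominated flame retardant, affects histone acetylation and zygotic transcription. All embryos developed in the vehicle dimethyl sulfoxide (DMSO, 0.1%), the controls with no TBBPA and the exposed ones with 40 µM TBBPA, starting at 0.75 hours post fertilization (hpf). Embryos of each treatment were collected at 2, 3.5 or 4.5 hpf, which gave 6 groups of 4 libraries. Nothing in the labels ties the libraries of a group to separate clutches or exposures. The p-values therefore reflect only how these samples spread, which may be technical.

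The zebrafish egg is stocked with maternal mRNA, which directs the cleavage divisions and is removed in large part as the embryonic genome is switched on. Removal commonly starts with the shortening of the poly(A) tail by CCR4-NOT, followed by loss of the cap through DCP2 and degradation from the 5′ end by XRN1. Adaptors such as microRNA-loaded Argonaute, the m6A reader YTHDF2, ZFP36 and Pumilio proteins bring chosen mRNAs to these enzymes, while IGF2BP, ELAVL1 and YBX1 proteins protect others.

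Levels are given as FPKM (fragments per kilobase of a gene, scaled per library), as the authors deposited them, with the mean ± SD of the 4 libraries of a group. The scale of each library followed the median ratio of its reads per gene to those of its table, and not its total of reads. Such scaling tends to keep the median difference of all genes near 0. The 8 libraries of 2 hpf and the 16 libraries of 3.5 and 4.5 hpf were scaled in separate tables, so values at 2 hpf are set beside the later ones without a test. Reads assigned to genes, recovered from the steps of the values, numbered 10633374 to 20018379 per library. DMSO replicate 4 at 2 hpf stood apart from its group, with squared differences from the other replicates of 14.4 to 15.6 times counting noise, against 5.71 to 7.49 among those. Nanog, pou5f3, sox19b, buc and zar1, which mark the maternally supplied embryo, were present in every library. The zygotic markers vox, tbx16 and mxtx2 were listed at 0 at 2 hpf and present from 3.5 hpf. The zygotic markers chrd and krt4 had means of at most 0.0294 and 0.0144 FPKM at 2 hpf, and krt4 had 0.055 in TBBPA at 3.5 hpf. Of genes of cell types absent at these stages, the muscle gene mylpfa was listed at 0 throughout. Mb, gfap, ins, fabp10a and lyz were above 0 in some libraries, with ins up to 1.45 FPKM in DMSO at 3.5 hpf. The clearance adaptor gene btg4, also on the list of maternal markers, was listed at 0 in all 24 libraries. The values of the 16 members whose gene overlaps another one are uncertain, and it is not established whether the libraries kept the strand. Among those with values below they are cnot6l, edc4, elavl1b, lsm4, lsm5, lsm6, lsm11, tnrc6b, tob1a, xrn1, xrn2, ythdf1 and zfp36l2. Edc4 and tob1a overlap a gene on their own strand only, and cnot6l and ythdf1 overlap genes on both strands. For these the strand would not separate all overlapping reads.

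Most of the decay machinery was present before zygotic transcription. At 2 hpf, 71 of the 81 members had a mean of at least 2 FPKM over the 8 libraries. In DMSO 65 reached 5 FPKM and 15 reached 100 FPKM, a level that 6.81% of all genes tested at 2 hpf had. The most abundant were khsrp (484 ± 73.4 FPKM in DMSO), whose product binds AU-rich elements, the adaptor gene btg2 (373 ± 19.2) and lsm14b (358 ± 29.5), which encodes a processing body protein that holds mRNA in a repressed state. The nuclear exonuclease gene xrn2 (289.8 ± 15.1), the cold-shock domain gene ybx1 (291 ± 65.7) and ago4 (282 ± 24.7) followed, and their order was within the spread of the libraries.

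Paralogs with the same catalytic role differed widely in level, on the FPKM scale. Of the CAF1-type deadenylase subunits, cnot8 lay at 276 ± 8.11 FPKM and cnot7 at 5.24 ± 0.772 in DMSO at 2 hpf. Among the CCR4-type subunits cnot6b lay at 9.41 ± 0.662 and cnot6l at 4.65 ± 1.92, while cnot6a was listed at 0 in all libraries but DMSO replicate 1 at 3.5 and at 4.5 hpf. Among m6A readers ythdf2 (32.8 ± 2.86) lay above ythdf1 (11.6 ± 1.72) and ythdf3 (3.22 ± 1.15), with no overlap between neighbours in that order. The Argonaute genes ran from ago4 through ago2 (67.0 ± 1.94), ago3a (64.2 ± 6.54) and ago1 (37.6 ± 2.98) to ago3b (26.0 ± 4.76), and ago2 and ago3a did not differ beyond their spread. Under 1 FPKM in every group were 6 members, namely btg4, cnot6a, igf2bp2b, lsm10, tnrc6c2 and upf3a, and these passed the filter of no comparison (at least 1 FPKM in at least 4 libraries).

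At 2 hpf no decay factor passed the threshold between TBBPA and DMSO. Of 74 members tested with limma, a linear model with moderated variances on log2(FPKM+1), 0 had a Benjamini-Hochberg adjusted p under 0.05, as had 0 of 11061 tested genes (0.0%). Limma voom on the recovered reads also called 0. Without adjustment, 9 members and 795 genes had a limma p under 0.05, and the smallest adjusted p among the members was 0.684. The median log2 difference was 0.02 over the members and −0.00 over all genes tested, and 3 members had groups with no overlap, against 4.48% of genes.

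Single values at 2 hpf show the spread behind that count. Ythdf2 had 32.5, 36.9, 30.8 and 31.0 FPKM in the DMSO libraries and 40.2, 40.7, 34.3 and 37.5 in the TBBPA libraries, so the groups overlapped, and its log2 difference was 0.21 (95% interval 0.04 to 0.39, adjusted p = 0.684). Ybx1 had 320.2, 311, 338 and 194 FPKM in DMSO and 299.9, 289, 342 and 325 in TBBPA. The low DMSO value belonged to replicate 4, which was also lowest of its group for khsrp (378 against 496 to 542 FPKM) and lsm14b (314 against 371 to 376). No member was called without that library either. The low-level deadenylase genes cnot7 (log2 difference −0.06, adjusted p = 0.946) and pan3 (0.13, 0.943) were testable at this time alone.

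At 3.5 hpf a few members differed, and the differences were small except for lsm1. Of 72 members tested 8 were higher in TBBPA and 3 lower, against 6.67% and 5.34% of 11859 genes, and 12% of genes in either direction. Among the 65 members with a mean of at least 5 FPKM 16.9% were called, near the 13.9% of all such genes, of which 8.58% were higher and 5.31% lower. The median log2 difference was 0.00 over the members and 0.01 over all genes. The libraries did not overlap for 12 members, against 17.2% of genes.

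Lsm1 encodes the subunit that makes the cytoplasmic LSM ring, which binds the 3′ end of deadenylated mRNA and promotes decapping. At 3.5 hpf it had 25.8, 27.6, 26.4 and 26.4 FPKM in the 4 DMSO libraries and 42.8, 39.8, 39.6 and 39.2 in the 4 TBBPA libraries. Every TBBPA library lay above every DMSO library, with a log2 difference of 0.59 (SE 0.04, adjusted p = 1.63e-05). The other ring subunits tested at this time (lsm3, lsm4, lsm5, lsm6, lsm7 and lsm8) did not pass, with log2 differences from −0.04 to 0.09.

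The other 7 higher members at 3.5 hpf differed by 0.13 to 0.26 on the log2 scale. The Argonaute gene ago3a had 48.6, 48.9, 55.2 and 50.8 FPKM in DMSO and 58.3, 64.5, 60.0 and 62.4 in TBBPA, a log2 difference of 0.26 (SE 0.05, adjusted p = 0.00442). The groups did not overlap, and the neighbouring ago1 did not pass (0.11, adjusted p = 0.33). Genes of the CCR4-NOT complex were among them: cnot4a, which encodes its associated ubiquitin ligase, lay at 29.3 ± 1.12 against 24.9 ± 0.945 FPKM (0.23, SE 0.04, adjusted p = 0.00485), and cnot10, a scaffold subunit, at 22.97 ± 0.480 against 20.1 ± 0.767 (0.18, SE 0.04, adjusted p = 0.0128). Lsm11, a component of the complex that processes histone mRNA, lay at 76.8 ± 3.89 against 67.5 ± 2.63 (0.18, SE 0.04, adjusted p = 0.0161), and lsm14b, btg3 and parn made up the 8. All 8 were also called with TPM scaling, total-count scaling and limma voom.

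The 3 lower members at 3.5 hpf were the decapping scaffold gene edc4 (−0.20, SE 0.06, adjusted p = 0.0497), ythdf2 (−0.09, SE 0.02, adjusted p = 0.0345) and the AU-rich element binding stabilizer gene elavl1a (−0.08, SE 0.02, adjusted p = 0.0396). Edc4 had 10.7, 12.3, 12.2 and 12.3 FPKM in DMSO and 9.86, 10.1, 10.2 and 10.7 in TBBPA, so TBBPA replicate 4 and DMSO replicate 1 met at the same rounded level. None of the 3 was called under all 4 scalings, and leaving out a single library ended the calls of ythdf2 (adjusted p up to 0.0956) and elavl1a (up to 0.100) whichever of the 8 it was. Edc4 lost its call (up to 0.128) without any of 6 libraries and kept it without DMSO replicate 1 or TBBPA replicate 4. In all, 5 of the 11 called members kept their call in each of the 8 fits that left out a library. Among the higher members btg3 (adjusted p up to 0.0573) and parn (up to 0.0592) each lost it in 4 fits, and lsm11 (0.0510) without DMSO replicate 4. Without DMSO replicate 4 the higher count was 5. The lower count was 0 without DMSO replicate 2 or 4 or TBBPA replicate 1 or 2, and 1 without DMSO replicate 1 or 3 or TBBPA replicate 3.

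At 4.5 hpf most decay factors differed between exposed and vehicle embryos, in both directions. Of 73 members tested 27 were higher in TBBPA and 35 lower, against 33.1% and 35% of 12324 genes, and 68.1% of genes in either direction. Among the 64 members with a mean of at least 5 FPKM 87.5% were called, 23 higher and 33 lower, against 75.1% of such genes, of which 34.7% were higher and 40.3% lower. The median log2 difference was −0.05 over the members and −0.02 over all genes, and the libraries did not overlap for 60 members, against 63.4% of genes. The members as a whole took 1.41% ± 0.0200 of the summed FPKM in TBBPA and 1.32% ± 0.00780 in DMSO, while their own sum lay the other way, at 5198 ± 47.8 FPKM in TBBPA and 5498 ± 80.7 in DMSO (mean ± SD, n = 4). In whole-embryo RNA, fewer cells with a transcript and less of it per cell cannot be told apart.

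The direction of the smaller differences depended on the scaling. Summed FPKM ran from 413743 to 426367 in the DMSO libraries at 4.5 hpf and from 367909 to 372903 in the TBBPA libraries. Rescaling to equal sums (TPM) or to equal totals of reads shifted the median log2 difference of all genes at 4.5 hpf by 0.16 and 0.12. It turned the split of members from 27 higher and 35 lower to 34 and 21 for TPM and to 32 and 23 for total counts. Over all 12324 genes it turned 4075 higher and 4317 lower to 5379 and 2793 for TPM and to 5091 and 3049 for total counts. All 27 higher members and 21 of the 35 lower ones were called the same way under the authors' scaling, TPM, total counts and limma voom. The other scalings all moved the median of all genes upward (limma voom by 0.03), so calls of higher were little at risk from them. Of the 11 members not called under the authors' scaling, 3 stayed uncalled under all 4. Btg2, tob1a, pan2, edc3, lsm14aa, ythdf3, ago3b and tnrc6b were called under some other scaling. Markers of the onset of zygotic transcription were lower in TBBPA at 4.5 hpf (vox 16.1 to 18.8 against 66.1 to 101 FPKM, tbx16 25.4 to 40.7 against 148 to 203). Of the maternal markers sox19b (means 325 against 74.9 FPKM) and buc (182 against 48.0) were higher in TBBPA. Nanog (971 against 1346) and pou5f3 (494 against 843) were lower, and zar1 had 28.7 against 29.5. The part of these changes in the members' differences was not tested.

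**Figure D1:**
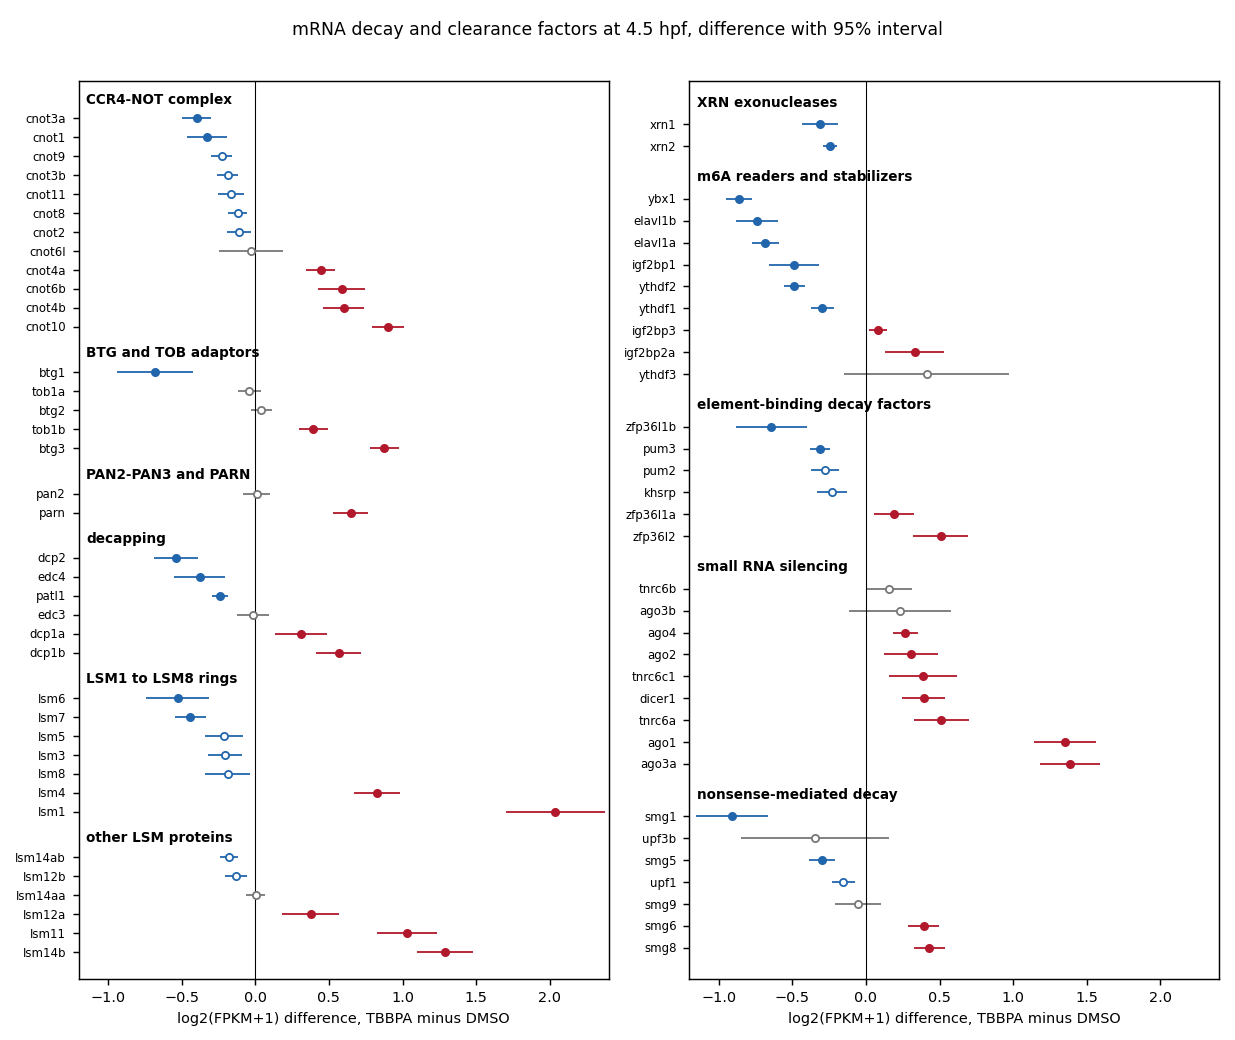
Log2(FPKM+1) difference between TBBPA and DMSO at 4.5 hpf for 71 of the 73 tested decay factors, grouped by role, with the 95% interval from limma (n = 4 per group). Red and blue mark members called higher and lower, grey those not called, and filled points the calls shared by all 4 scalings. Lsm1 lies farthest right at 2.04 and smg1 farthest left at −0.91, and all 9 small RNA silencing genes lie right of 0.

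Subunit genes of the deadenylase went both ways, as did genes in general. Of 12 tested CCR4-NOT genes 4 were higher and 7 lower in TBBPA at 4.5 hpf, with a median log2 difference of −0.11. Over all genes tested 33.1% were higher and 35% lower. Cnot10 had 11.1, 10.6, 11.2 and 10.3 FPKM in the DMSO libraries and 21.2, 21.6, 21.2 and 20.02 in the TBBPA libraries, about 1.95 times as much in the mean, with a log2 difference of 0.90 (SE 0.05, adjusted p = 2.05e-07). The groups did not overlap, and DMSO embryos of 2 hpf had 18.0 ± 0.452 FPKM. Both ubiquitin ligase genes were higher, cnot4b at 56.3 ± 3.50 against 36.8 ± 2.81 FPKM (0.60, SE 0.06, adjusted p = 1.16e-05) and cnot4a at 27.0 ± 1.09 against 19.6 ± 0.710 (0.44, SE 0.05, adjusted p = 1.11e-05), and so was the CCR4-type deadenylase gene cnot6b.

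Cnot1, which encodes the scaffold on which the complex assembles, had 34.5, 34.01, 36.0 and 36.8 FPKM in DMSO and 27.9, 29.4, 24.6 and 29.9 in TBBPA at 4.5 hpf. All TBBPA libraries were below all DMSO libraries, with a log2 difference of −0.33 (SE 0.06, adjusted p = 0.000732). With cnot3a it was lower under all 4 scalings. The other 5 lower subunits (cnot2, cnot3b, cnot8, cnot9 and cnot11) differed by −0.23 to −0.11 and were not called under every scaling, with cnot2 and cnot11 turning to 0.06 and 0.01 with TPM. Cnot8, the more abundant CAF1-type deadenylase gene, lay at 213 ± 3.85 against 231 ± 7.25 FPKM (−0.12, SE 0.03, adjusted p = 0.00413), and its difference became 0.06 under TPM and 0.02 under total-count scaling. Its paralog cnot7 was under the filter and had 0.247, 0.0643, 0.0790 and 0.153 FPKM in DMSO and 0.946, 0.999, 0.726 and 0.568 in TBBPA, with all TBBPA libraries above, and was not tested.

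Among the BTG and TOB adaptors, which bind CAF1-type deadenylases, btg3 and btg1 went opposite ways. Btg3 had 79.2, 78.3, 71.9 and 70.0 FPKM in DMSO and 142, 140.0, 138 and 133 in TBBPA, a log2 difference of 0.88 (SE 0.04, adjusted p = 1.44e-07). Btg1 had 42.4, 36.6, 43.7 and 47.1 FPKM in DMSO and 20.6, 24.9, 29.1 and 30.3 in TBBPA, a log2 difference of −0.68 (SE 0.12, adjusted p = 0.000389). In neither gene did the groups overlap. Tob1b was also higher, at 80.8 ± 2.92 against 61.3 ± 3.24 FPKM (0.39, SE 0.04, adjusted p = 1.8e-05). Btg2 did not pass (0.04, 95% interval −0.03 to 0.11), though it was called under some other scaling. Tob1a did not pass either, at 171 ± 8.16 against 176 ± 1.95 FPKM (−0.04, 95% interval −0.12 to 0.04), and its difference became 0.13 under TPM and 0.10 under total-count scaling.

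Parn, which encodes a deadenylase known from Xenopus oocytes and from the trimming of small non-coding RNAs, had 117, 115, 109 and 101 FPKM in DMSO and 180.4, 183, 167 and 164 in TBBPA at 4.5 hpf. The groups were separate, with a log2 difference of 0.65 (SE 0.05, adjusted p = 2.44e-06). Pan2, the catalytic subunit of the deadenylase that trims long tails, lay at 39.7 ± 1.74 against 39.4 ± 0.965 FPKM. Pan2 did not pass (0.01, 95% interval −0.08 to 0.10), though it was called under some other scaling. Its partner pan3 was under the filter at 4.5 hpf, with 0.140, 1.71, 0.308 and 0.104 FPKM in DMSO and 0.164, 1.82, 0.172 and 0.252 in TBBPA, so that replicate 2 was high in both groups.

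Of 6 tested decapping genes 2 were higher and 3 lower at 4.5 hpf, against 33.1% and 35% of all genes. All 5 calls held under the 4 scalings. Dcp2, the decapping enzyme gene, had 16.7, 14.01, 14.9 and 16.4 FPKM in DMSO and 11.03, 9.89, 10.6 and 9.95 in TBBPA. All TBBPA libraries lay lower, with a log2 difference of −0.54 (SE 0.07, adjusted p = 4.76e-05). Its activator genes were higher, dcp1a at 2.98 ± 0.208 against 2.21 ± 0.150 FPKM (0.31, SE 0.08, adjusted p = 0.00523) and dcp1b with a log2 difference of 0.57. The scaffold gene edc4 (10.7 ± 1.21 against 14.2 ± 0.766 FPKM, log2 difference −0.38, SE 0.08, adjusted p = 0.00144) and patl1, whose product links the LSM ring to decapping (139.7 ± 1.78 against 165 ± 2.79, log2 difference −0.24, SE 0.02, adjusted p = 1.24e-05), were lower. Edc3, another decapping enhancer, did not pass (10.01 ± 0.128 against 10.2 ± 0.206 FPKM, −0.02, 95% interval −0.13 to 0.09), and its difference turned to 0.15 with TPM scaling.

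Genes of the LSM rings differed in both directions at 4.5 hpf. Of 7 tested 2 were higher and 5 lower in TBBPA, against 33.1% and 35% of all genes. In the cytoplasm LSM1 joins the shared subunits in the ring that acts in mRNA decay, and in the nucleus LSM8 takes its place in the ring that binds U6 RNA of the spliceosome. At 4.5 hpf lsm1 had 9.54, 9.997, 7.21 and 5.51 FPKM in the DMSO libraries and 39.9, 36.2, 33.5 and 32.3 in the TBBPA libraries. The groups were far apart, and the log2 difference of 2.04 (SE 0.15, adjusted p = 1.25e-06) was the largest of any member. Lsm1 (ENSDARG00000043177) lies on chromosome 8 from 44613135 to 44618213 on the plus strand, in the coordinates of the tables, whose genome build is not given in the sources used here.

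Lsm4, a subunit of both rings, had 64.8, 61.4, 60.8 and 56.1 FPKM in DMSO and 122, 114, 96.4 and 103 in TBBPA, again without overlap (0.83, SE 0.07, adjusted p = 3.09e-06). The other 5 tested ring genes were lower in TBBPA. Lsm6 had 24.6, 27.9, 21.9 and 31.1 FPKM in DMSO and 18.3, 19.3, 16.8 and 17.1 in TBBPA (−0.53, SE 0.10, adjusted p = 0.000629). Together with lsm7 it was lower under all 4 scalings, while lsm3, lsm5 and lsm8, at −0.21 to −0.19, were not. The call of lsm8 also ended when any 1 of 5 libraries was left out (adjusted p up to 0.0921).

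**Figure D2:**
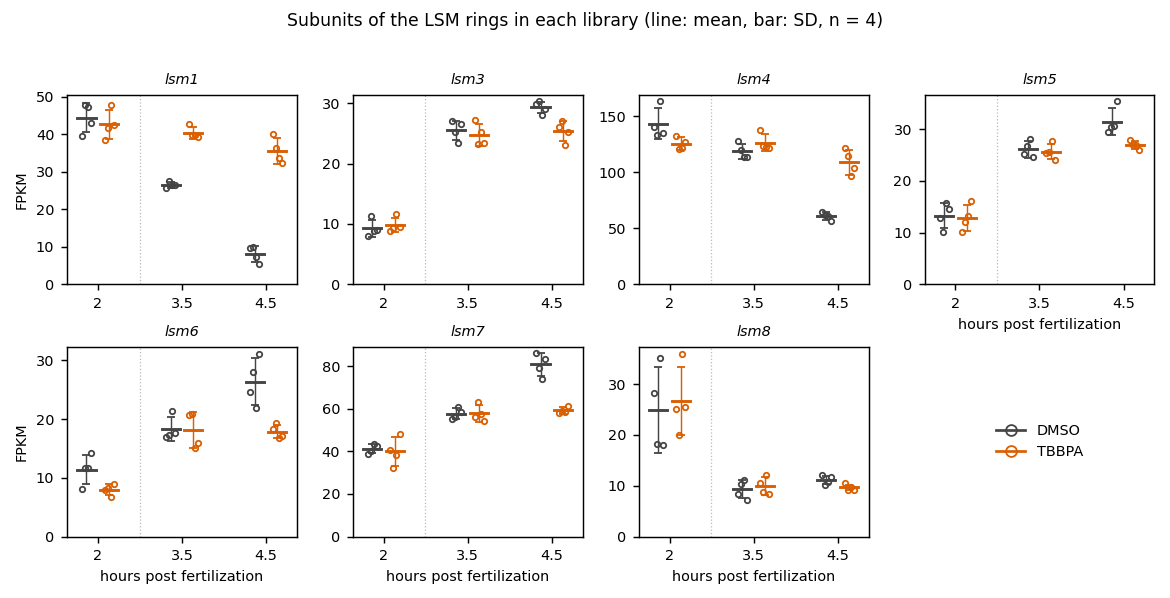
FPKM of the 7 tested LSM ring genes in each of the 24 libraries against hours post fertilization (circles: libraries, horizontal line: mean, bar: SD, n = 4); the dotted line separates the separately scaled tables. Lsm1 and lsm4 were lower in DMSO than in TBBPA at 4.5 hpf, by means of 8.07 against 35.5 and 60.8 against 109 FPKM, whereas lsm6 and lsm7 were higher in DMSO.

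Among the LSM proteins outside the rings, lsm14b had 142, 160.2, 136 and 119.6 FPKM in DMSO and 376, 348, 336 and 307 in TBBPA at 4.5 hpf, 2.45 times as much in the mean (1.29, SE 0.08, adjusted p = 6.11e-07). Its paralogs behaved otherwise: lsm14aa did not pass (0.00, 95% interval −0.06 to 0.07) but was called under some other scaling, and lsm14ab was lower (−0.18) but not under every scaling. Lsm11 had 33.0, 36.4, 32.7 and 25.9 FPKM in DMSO and 69.7, 69.3, 63.6 and 61.2 in TBBPA, without overlap (1.03, SE 0.09, adjusted p = 3.85e-06). Its partner in the histone mRNA complex, lsm10, was under the filter. In this class 3 of 6 tested genes were higher, with lsm12a as the third, and 2 lower (lsm14ab and lsm12b), neither under every scaling. Among all genes 33.1% were higher and 35% lower.

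Both 5′ to 3′ exonuclease genes were lower in TBBPA at 4.5 hpf, under all 4 scalings. Xrn1, which encodes the cytoplasmic enzyme that completes decay, had 83.0, 80.0, 87.9 and 88.9 FPKM in DMSO and 67.1, 70.6, 62.2 and 73.7 in TBBPA (−0.31, SE 0.05, adjusted p = 0.000516). Xrn2, which encodes the nuclear enzyme, had 325, 333, 335 and 337 FPKM in DMSO and 279, 281, 280.5 and 283 in TBBPA (−0.24, SE 0.02, adjusted p = 5.02e-06). The groups did not overlap for either gene, and the ratios of the means were 0.805 and 0.844.

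The m6A readers and stabilizers had the lowest median of the 11 classes, −0.49 over 9 genes. Of these 6 were lower and 2 higher, against 35% and 33.1% of all genes. Ybx1, whose product binds maternal mRNA and limits its translation and decay, had 779, 792, 789.7 and 879.7 FPKM in DMSO and 439, 434, 449.9 and 459 in TBBPA. The TBBPA libraries lay within 434 to 459 FPKM, close to both groups of 3.5 hpf (427 ± 7.44 in DMSO and 414 ± 6.74 in TBBPA), and the log2 difference at 4.5 hpf was −0.86 (SE 0.04, adjusted p = 8.48e-08). Elavl1a had 224, 224, 235 and 253 FPKM in DMSO and 142, 142, 147 and 149 in TBBPA (−0.68, SE 0.04, adjusted p = 3.55e-07). Its paralog elavl1b lay lower as well, at 8.48 ± 0.577 against 14.8 ± 0.733 FPKM (−0.74, SE 0.06, adjusted p = 3.17e-06).

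Ythdf2, which encodes an m6A reader reported to act in maternal clearance, had 100.1, 97.3, 100.2 and 105 FPKM in DMSO and 70.6, 71.6, 73.0 and 71.0 in TBBPA at 4.5 hpf. All TBBPA libraries lay below all DMSO libraries, with a log2 difference of −0.49 (SE 0.03, adjusted p = 4.69e-07). Ythdf1 was lower at 36.9 ± 1.24 against 45.4 ± 0.752 FPKM (−0.30, SE 0.04, adjusted p = 3.38e-05). Ythdf3, at 1.24, 3.95, 1.96 and 0.994 FPKM in DMSO and 3.62, 2.55, 2.28 and 2.81 in TBBPA, overlapped and did not pass (0.41, adjusted p = 0.17), though it was called under some other scaling. Without DMSO replicate 2, its highest DMSO library, it was called higher (0.68, adjusted p = 0.0045). Leaving out the highest DMSO value raises this difference by construction, so that fit is not support for a direction.

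The IGF2BP genes, whose products protect mRNA, did not move together. Igf2bp1 was lower at 14.2 ± 1.17 against 20.2 ± 1.80 FPKM (−0.49, SE 0.08, adjusted p = 0.000228), and igf2bp2a was higher at 4.34 ± 0.475 against 3.24 ± 0.285 (0.33, SE 0.09, adjusted p = 0.00779). Igf2bp3, which in zebrafish stabilizes maternal mRNA, was higher by 0.08 (SE 0.03, adjusted p = 0.0203), with 84.7, 86.8, 84.3 and 83.9 FPKM in DMSO and 89.5, 87.8, 91.5 and 91.5 in TBBPA. Its groups did not overlap, but the call ended without DMSO replicate 3 or TBBPA replicate 3 or 4 (adjusted p up to 0.0548).

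Of 7 tested genes of the ZFP36, Pumilio and KHSRP proteins, 5 were lower and 2 higher in TBBPA. Among all genes 35% were lower and 33.1% higher. The Pumilio gene pum2, whose product is a repressor that recruits deadenylases, lay at 31.9 ± 1.39 against 38.8 ± 1.37 (−0.28, SE 0.04, adjusted p = 0.000221). Pum3, which encodes a nucleolar relative, was lower as well (−0.31). Khsrp lay at 410.4 ± 5.66 against 482 ± 33.7 FPKM (−0.23, SE 0.05, adjusted p = 0.00114). Pum3 and zfp36l1b were lower under all 4 scalings, and pum2 and khsrp were not.

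The ZFP36 genes, which encode zinc finger proteins of AU-rich element decay, went different ways. Zfp36l2 had 9.12, 9.01, 7.57 and 7.68 FPKM in DMSO and 10.8, 13.1, 13.1 and 12.1 in TBBPA and was higher (0.51, SE 0.08, adjusted p = 0.000329). Zfp36l1b had 1.16, 1.05, 1.68 and 1.18 FPKM in DMSO and 0.394, 0.604, 0.387 and 0.400 in TBBPA and was lower (−0.64, SE 0.11, adjusted p = 0.000373). Neither pair of groups overlapped, and the added pseudocount of 1 FPKM makes the log2 difference of zfp36l1b understate the ratio of its means, 0.352. Zfp36l1b reached the filter level of 1 FPKM only in the DMSO libraries of 4.5 hpf. It was thus tested only because it was high there, and its call is not support for a direction. Zfp36l1a was higher at 19.3 ± 0.687 against 16.8 ± 1.44 FPKM (0.19, SE 0.06, adjusted p = 0.0193), a call that ended without DMSO replicate 1 or TBBPA replicate 3 (adjusted p up to 0.0539).

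All 9 tested small RNA silencing genes had a log2 difference above 0 at 4.5 hpf, with a median of 0.39 beside −0.02 over all genes. Of the 9, 7 were called higher, against 33.1% of all genes, and tnrc6c1 among the 7 passed the filter only through the TBBPA libraries. The 7 calls held under all 4 scalings, a weak check, since the other scalings moved differences upward. Ago1 had 7.71, 7.46, 7.46 and 6.31 FPKM in the DMSO libraries and 21.9, 22.8, 18.1 and 17.6 in the TBBPA libraries (1.35, SE 0.09, adjusted p = 8.66e-07). Ago3a had 17.2, 18.0, 16.6 and 13.1 FPKM in DMSO and 46.1, 46.6, 43.0 and 39.7 in TBBPA (1.39, SE 0.09, adjusted p = 5.99e-07). Both were without overlap, with ratios of means of 2.782 and 2.70.

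The genes of ago1 and ago3a are neighbours on the minus strand of chromosome 16, at 51084472 to 51151993 and 51001957 to 51072406 in the coordinates of the tables. The differences of the other Argonaute genes were smaller. Ago2 had 29.3, 28.7, 37.6 and 33.1 FPKM in DMSO and 38.9, 42.3, 36.9 and 41.7 in TBBPA. One DMSO library, replicate 3, lay above the lowest TBBPA library, and the log2 difference was 0.31 (SE 0.08, adjusted p = 0.00695). Ago4 was called with 0.27, and ago3b did not pass (0.23, 95% interval −0.11 to 0.58) but was called under some other scaling.

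Tnrc6a, whose product bridges Argonaute to the deadenylases, had 18.0, 17.7, 22.2 and 20.5 FPKM in DMSO and 28.5, 30.7, 24.8 and 29.2 in TBBPA (0.51, SE 0.08, adjusted p = 0.000311). Dicer1, which encodes the nuclease that cuts microRNA precursors, had 5.92, 6.63, 6.12 and 5.64 FPKM in DMSO and 8.23, 8.55, 8.09 and 8.22 in TBBPA (0.39, SE 0.06, adjusted p = 0.000328). In both genes all TBBPA libraries were higher. The TNRC6 gene tnrc6c1 was called at about 1 FPKM (1.36 against 0.804). It reached the filter level of 1 FPKM only in the TBBPA libraries, so its call is not support for a direction. Tnrc6b did not pass (adjusted p = 0.0629), though it was called under some other scaling.

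Nonsense-mediated decay removes mRNA with a premature stop codon. Of 8 tested genes of this pathway 2 were higher and 4 lower in TBBPA at 4.5 hpf, against 33.1% and 35% of all genes. Smg1, the kinase gene of the pathway, had 5.21, 5.27, 5.82 and 6.81 FPKM in DMSO and 2.17, 2.49, 2.57 and 3.21 in TBBPA, without overlap (−0.91, SE 0.11, adjusted p = 3.59e-05). This was the lowest log2 difference of any member, at a low level. The helicase gene upf1 lay at 43.7 ± 0.969 against 48.7 ± 1.484 FPKM (−0.15, SE 0.03, adjusted p = 0.0027), which turned to 0.02 with TPM scaling and was not called with total-count scaling. Smg5 was lower and smg6 and smg8 higher under all 4 scalings, with log2 differences of −0.30, 0.39 and 0.43.

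In all, 56 of the 62 calls at 4.5 hpf were kept in each of the 8 fits that left out 1 library. Of the others cnot2, lsm8, igf2bp3 and zfp36l1a lost the call in some fits. Tnrc6c1 and zfp36l1b were under the filter, and so not tested, in 4 of the 8 fits and kept the call in the other 4.

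**Figure D3:**
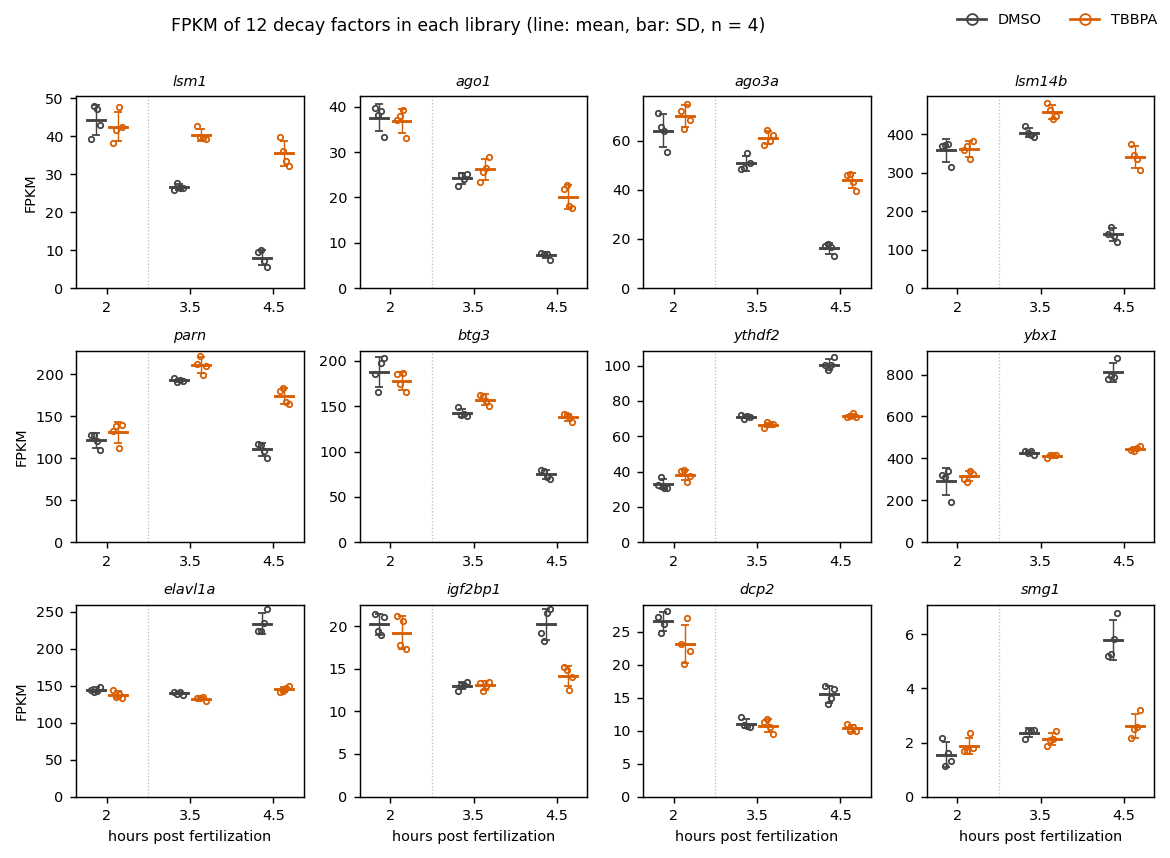
FPKM of 12 decay factors in each of the 24 libraries against hours post fertilization (circles: libraries, horizontal line: mean, bar: SD, n = 4; axes start at 0); the dotted line separates the separately scaled tables. In the first 6 panels (lsm1, ago1, ago3a, lsm14b, parn and btg3) the DMSO libraries of 4.5 hpf lie below the TBBPA libraries, and in the last 6 (ythdf2, ybx1, elavl1a, igf2bp1, dcp2 and smg1) above.

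The change from 3.5 to 4.5 hpf was followed within each treatment. In DMSO 34 of 73 tested members rose and 29 fell, against 35.8% and 34.3% of 12354 genes, and 70.1% of genes in either direction. At a mean of at least 5 FPKM 32 of 65 members rose and 24 fell, against 40.8% and 36.3% of such genes (77.2% in all). The median was 0.06 over the members and 0.02 over all genes. TPM and total-count scaling moved the median of all genes by −0.15 and −0.11 and left 24 members rising and 36 or 34 falling. Over all 12354 genes 4427 rises became 3068 and 3308, and 4235 falls became 5439 and 5169. Under all 4 scalings 24 rises and 29 falls held. The other scalings all moved differences downward, so calls of falling were little at risk from them. In TBBPA 8 of 72 members rose and 10 fell, against 6.15% and 8.6% of 11877 genes, and 14.8% of genes in either direction. At a mean of at least 5 FPKM the same counts, 8 and 10 of 65 members, stood against 5.75% and 11.5% of such genes (17.2% in all). In TBBPA 7 rises and 9 falls held under all 4 scalings. The 4.5 hpf DMSO libraries entered both this change in DMSO and the comparison of treatments at 4.5 hpf, so their values are given side by side and not as separate support.

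The steepest falls in DMSO were in lsm1 (−1.63, SE 0.14, adjusted p = 2.56e-06), ago1 (−1.62, SE 0.07, adjusted p = 1.56e-08), ago3a (−1.60, SE 0.09, adjusted p = 9.46e-08) and lsm14b (−1.54, SE 0.07, adjusted p = 3.54e-08). In TBBPA the same 4 genes changed by −0.18 (adjusted p = 0.0749, not past the threshold), −0.37 (0.0227), −0.48 (0.000767) and −0.42 (0.00122). The call of ago1 in TBBPA was kept in 4 of the 8 fits that left out 1 library, and ended without replicate 2 or 4 of 3.5 hpf or replicate 3 or 4 of 4.5 hpf (adjusted p up to 0.0660), while ago3a and lsm14b kept theirs in all 8. Over the 3 times lsm1 lay at 44.4 ± 3.97, 26.5 ± 0.782 and 8.07 ± 2.09 FPKM in DMSO and at 42.6 ± 3.88, 40.3 ± 1.62 and 35.5 ± 3.37 in TBBPA. Ago1 lay at 37.6 ± 2.98, 24.2 ± 1.21 and 7.24 ± 0.625 FPKM in DMSO and at 36.9 ± 2.64, 26.2 ± 2.27 and 20.1 ± 2.65 in TBBPA. In ago1 the level at 3.5 hpf was below that of 2 hpf in both treatments, whereas in lsm1 the ranges of 2 and 3.5 hpf were apart in DMSO and overlapped in TBBPA.

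Parn, lsm11 and cnot4b also fell in DMSO. Parn lay at 121 ± 8.80, 193 ± 2.09 and 111 ± 7.49 FPKM in DMSO and at 131 ± 12.9, 211 ± 9.21 and 174 ± 9.29 in TBBPA. It fell from 3.5 to 4.5 hpf in DMSO (−0.80, SE 0.04, adjusted p = 1.03e-07) and in TBBPA (−0.28, SE 0.04, adjusted p = 0.00248). Lsm11 also fell in both, by log2 differences of −1.06 in DMSO and −0.22 in TBBPA, where the call ended without replicate 3 of 4.5 hpf (adjusted p = 0.0560). Cnot4b fell in DMSO (−0.65, SE 0.05, adjusted p = 1.31e-06), and its difference of −0.14 in TBBPA did not pass (adjusted p = 0.0589).

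The steepest rises in DMSO were in btg1 (1.37, SE 0.07, adjusted p = 8.84e-08), smg1 (1.01, SE 0.09, adjusted p = 3.36e-06), ybx1 (0.92, SE 0.04, adjusted p = 1.54e-08) and zfp36l1b (0.87, SE 0.10, adjusted p = 2.51e-05). Zfp36l1b passed the filter only through the DMSO libraries of 4.5 hpf, so its rise was a condition of being tested. Btg1 rose in TBBPA too (0.93, SE 0.11, adjusted p = 0.001), from 11.7, 12.8, 14.7 and 13.7 FPKM at 3.5 hpf to 20.6, 24.9, 29.1 and 30.3 at 4.5 hpf. Ybx1 rose by 0.11 in TBBPA (adjusted p = 0.0139), elavl1a by 0.13 (0.00812) and ythdf2 by 0.10 (0.0263), against 0.73 for elavl1a and 0.49 for ythdf2 in DMSO. The call of ythdf2 in TBBPA was kept in 3 of the 8 fits that left out 1 library, and ended without replicate 1 or 3 of 3.5 hpf or replicate 2, 3 or 4 of 4.5 hpf (adjusted p up to 0.0775). Smg1 did not pass in TBBPA (0.20, adjusted p = 0.227).

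A few members changed alike or the opposite way in the treatments. Tob1a rose in DMSO (0.30, SE 0.02, adjusted p = 1.57e-06) and in TBBPA (0.23, SE 0.04, adjusted p = 0.00342), and the difference between these changes did not pass (−0.08, adjusted p = 0.174). Tob1b fell in DMSO (−0.32, SE 0.04, adjusted p = 6.43e-05) and rose in TBBPA (0.11, SE 0.03, adjusted p = 0.0423), and zfp36l2 likewise fell in DMSO (−0.30, SE 0.08, adjusted p = 0.00571) and rose in TBBPA (0.24, SE 0.07, adjusted p = 0.0339). The TBBPA rises of both genes ended without any of 7 of the 8 libraries (adjusted p up to 0.108 and 0.0944). Of the 3 rises of BTG and TOB genes in TBBPA, 2 held under all 4 scalings. Over all members 8 of the 18 calls in TBBPA and 56 of the 63 in DMSO were kept whichever single library was left out. In DMSO 5 calls were lost in some of these fits, and tnrc6c1 and zfp36l1b were not tested in 4 of the 8. The count rising in TBBPA became 5 without replicate 1 of 3.5 hpf and 4 without replicate 3 of 3.5 hpf or replicate 2 or 3 of 4.5 hpf. The count falling became 5 without replicate 2 of 3.5 hpf and 6 without replicate 3 or 4 of 4.5 hpf.

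**Figure D4:**
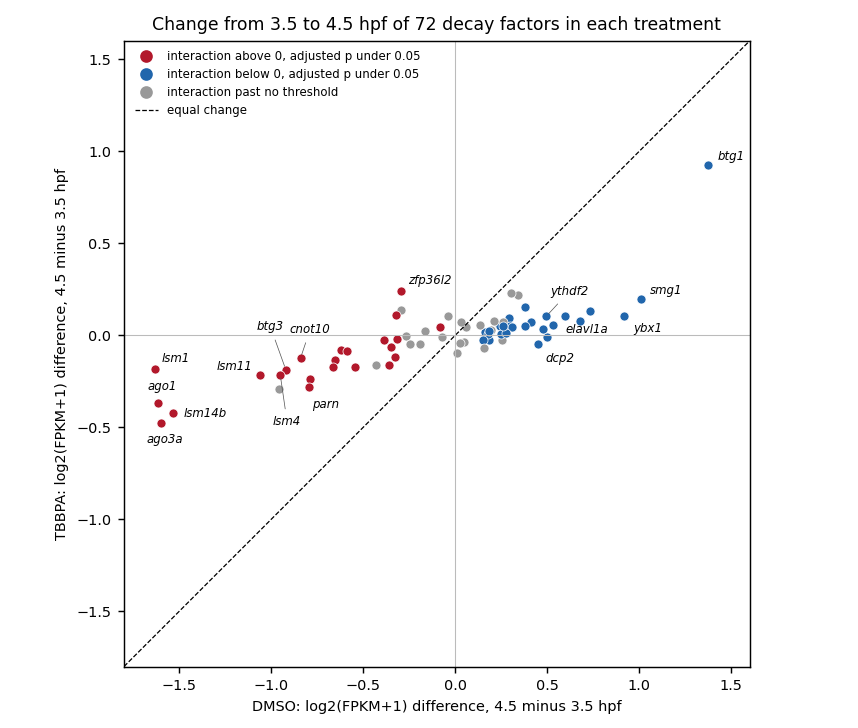
Log2(FPKM+1) difference between 4.5 and 3.5 hpf in TBBPA (vertical axis) against that in DMSO (horizontal axis) for the 72 decay factors tested in both, with the dashed line of equal change; colours mark the call of the interaction. The points spread from −1.63 to 1.37 along the DMSO axis and from −0.48 to 0.93 along the TBBPA axis.

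Whether the TBBPA difference at 4.5 hpf exceeded that at 3.5 hpf was tested with an interaction term in a fit of the 16 later libraries. Of 73 members 23 passed with an interaction above 0 and 27 with one below 0, against 26.3% and 26.6% of 12780 genes, and 52.8% of genes in either direction. At a mean of at least 5 FPKM it passed above 0 for 23 and below 0 for 25 of 65 members, against 31.9% and 30.4% of such genes (62.2% in all). With TPM and total-count scaling the count above 0 became 32 and 31, and that below 0 became 15 under both. Over all 12780 genes 3356 above 0 became 4659 and 4347, and 3397 below 0 became 2013 and 2305. Under all 4 scalings 23 above and 15 below 0 held. The other scalings moved the median of all genes upward, by 0.03 to 0.15, so calls above 0 were little at risk from them. The largest were lsm1 (1.45, SE 0.17, adjusted p = 2.65e-06), ago1 (1.25, SE 0.12, adjusted p = 3.26e-07), ago3a (1.12, SE 0.11, adjusted p = 4.24e-07), lsm14b (1.11, SE 0.10, adjusted p = 1.94e-07) and lsm11 (0.85, SE 0.11, adjusted p = 6.15e-06). The lowest were smg1 (−0.81, SE 0.13, adjusted p = 8.78e-05), ybx1 (−0.81, SE 0.05, adjusted p = 3.43e-09), zfp36l1b (−0.70, SE 0.13, adjusted p = 0.000227), elavl1a (−0.60, SE 0.05, adjusted p = 5.1e-08), elavl1b (−0.60, SE 0.11, adjusted p = 0.000234) and lsm6 (−0.51, SE 0.16, adjusted p = 0.013). The interaction of lsm6 was not called under all 4 scalings. Zfp36l1b passed the filter only through the DMSO libraries of 4.5 hpf, so its place among the lowest is not support. Of the 50 members past the threshold 45 stayed past it in each of the 16 fits that left out 1 library. Ago2, cnot11, lsm12a and xrn1 lost the call in some, and zfp36l1b was not tested in 4.

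By role, all 9 small RNA silencing genes had an interaction above 0, 6 of them called, with a median of 0.43, whereas the m6A readers and stabilizers had 1 called above and 6 below 0, with a median of −0.39. Over all genes the median was −0.00, with 26.3% called above and 26.6% below 0. These classes had the highest and lowest median of the 11. In the change over time in DMSO they had 8 falls and no rise among 9 genes, and 6 rises and 3 falls among 9. The 8 falls include tnrc6c1, which passed that filter only through the libraries of 3.5 hpf. Among all genes 34.3% fell and 35.8% rose. The interaction is the change in TBBPA minus that in DMSO, so the DMSO counts are not separate support. The summed levels of these classes in DMSO moved from 374 ± 14.5 to 249 ± 13.0 FPKM for small RNA silencing and from 797 ± 8.66 to 1316 ± 63.6 for the readers and stabilizers. In TBBPA the sums at 3.5 and 4.5 hpf were 392 ± 19.2 and 343 ± 18.9 FPKM, and 765 ± 9.30 and 819 ± 16.03 FPKM. The summed rise of the readers and stabilizers in DMSO lay mostly in the stabilizer gene ybx1, with means of 427 and 810 FPKM. Elavl1a, also a stabilizer gene, had 140 and 234 FPKM, and the falls in this class were in igf2bp2a, igf2bp3 and ythdf3.

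Other genes of mRNA turnover, outside the symbol pattern, were followed as 5 lists drawn up from general knowledge. At 2 hpf none of their genes was called. At 3.5 hpf at most 1 gene in either direction was called on any list. At 4.5 hpf the RNA exosome and its cofactors, which degrade RNA from the 3′ end, had 3 higher and 8 lower of 20 tested genes, with a median log2 difference of −0.13. Genes of tail uridylation and cytoplasmic polyadenylation had 4 higher and 6 lower of 14 (median −0.08), m6A writers, erasers and nuclear readers 3 and 3 of 10 (−0.05), and processing body proteins and translational repressors 3 and 8 of 18 (−0.13), with lsm14aa, lsm14ab and lsm14b counted here too. MicroRNA processing genes other than dicer1 had 1 higher and 2 lower of 3 (−0.12). These shares stand beside the 33.1% higher and 35% lower of all genes.

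Within those lists the widest differences at 4.5 hpf were in genes that act on the tail or in processing bodies, and they were picked after their values were seen. Cpeb1b, a regulator of cytoplasmic polyadenylation, lay at 88.0 ± 10.1 FPKM in TBBPA against 18.1 ± 0.952, and papd7, a non-canonical poly(A) polymerase gene, at 44.2 ± 4.36 FPKM in TBBPA against 11.5 ± 1.56. Mex3b, which encodes an RNA-binding repressor, lay at 61.7 ± 11.2 FPKM in TBBPA against 222 ± 11.6. The DDX6-type helicase genes, whose products join LSM14 and PATL1 in processing bodies, split: ddx6 lay at 14.4 ± 1.505 FPKM in TBBPA against 7.43 ± 0.461, and ddx61 at 39.4 ± 1.85 FPKM in TBBPA against 71.4 ± 6.97. All 5 differences were past the threshold.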

How the data were processed

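RNA of whole zebrafish embryos was sequenced, and the authors deposited FPKM per gene in 1 table of 8 libraries (2 hpf) and 1 of 16 (3.5 and 4.5 hpf), each scaled separately. The submitters' processing notes name HISAT2 2.0.5 and featureCounts 1.5.0-p3; the genome build is not given in the sources used here. All values were whole multiples of 1 read's worth (100% within 0.001), which gave reads per library. All value columns matched a sample.

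Members were found by gene symbol. Members and lists were chosen with earlier results of these data known. Each comparison was fitted on log2(FPKM+1) with limma 3.58.1 (R 4.3.3, trend, two-sided), over genes that reached 1 FPKM in 4 or more of the fitted libraries, with Benjamini-Hochberg adjustment over all of them and a threshold of 0.05. The fit was also run on simulated counts with the same spread for all genes and no outlying library. That run does not cover the spread of the real libraries. Named with values were 37 matched genes of a fixed list of 38 (patl2 had no match) and the members with the most extreme called differences, 49 in all, and others by their place in a complex, after their values were seen. Alternatives were a pseudocount of 0.1, no filter, TPM or total-count scaling, limma voom on recovered reads, a replicate block and leaving out each library. Tables and figures used python 3.11.15, pandas 2.3.3, numpy 2.4.6 and matplotlib 3.10.9. Some members are counted but not reported here by name. No sequence is printed, since no sequence of the tables' build was used here.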

Additional observations from a re-analysis of the deposited data

Results flagged for a closer look

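The values of 22 library and gene pairs stood apart from the other 3 libraries of their group, by a gap over the range above Dixon's 95% critical value for 4 samples. They came from 278 screened sets of 4 libraries, and chance flags about 1 in 20 such sets. The values are in FPKM. DMSO replicate 1 at 2 hpf had xrn1 at 82.05 (highest, the others 72.6 to 73.7). DMSO replicate 1 at 3.5 hpf had cnot6a at 0.0153 (highest, the others at 0), edc4 at 10.7 (lowest, the others 12.2 to 12.3), igf2bp3 at 88.3 (lowest, the others 90.7 to 90.9) and tnrc6a at 30.4 (lowest, the others 31.8 to 32.0). DMSO replicate 1 at 4.5 hpf had cnot6a at 0.0123 (highest, the others at 0). Both cnot6a values were 1 read each, so the gap equalled the range by construction. DMSO replicate 2 at 3.5 hpf had lsm11 at 71.4 (highest, the others 66.0 to 66.3). DMSO replicate 2 at 4.5 hpf had pan3 at 1.71 (highest, the others 0.104 to 0.308). DMSO replicate 3 at 2 hpf had ago2 at 64.1 (lowest, the others 67.6 to 68.2). DMSO replicate 3 at 3.5 hpf had igf2bp2a at 3.41 (lowest, the others 4.24 to 4.40) and lsm6 at 21.3 (highest, the others 16.9 to 17.6). DMSO replicate 3 at 4.5 hpf had tob1a at 173 (lowest, the others 177 to 177). DMSO replicate 4 at 2 hpf had lsm14b at 314 (lowest, the others 371 to 376). DMSO replicate 4 at 4.5 hpf had ybx1 at 879.7 (highest, the others 779 to 792). TBBPA replicate 1 at 2 hpf had tob1b at 91.4 (lowest, the others 94.6 to 95.2). TBBPA replicate 1 at 3.5 hpf had lsm4 at 137 (highest, the others 121 to 123) and ybx1 at 404 (lowest, the others 416 to 419). TBBPA replicate 2 at 2 hpf had zfp36l1a at 14.7 (highest, the others 11.9 to 12.2). TBBPA replicate 2 at 4.5 hpf had pan3 at 1.82 (highest, the others 0.164 to 0.252) and zfp36l1b at 0.604 (highest, the others 0.387 to 0.400). TBBPA replicate 3 at 3.5 hpf had igf2bp2a at 5.57 (highest, the others 3.91 to 4.14). TBBPA replicate 4 at 2 hpf had pan2 at 35.9 (highest, the others 31.9 to 32.3).

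The log2 difference between TBBPA and DMSO differed between 4.5 and 3.5 hpf for 34 of 44 named genes tested, by limma's interaction term with an adjusted p under 0.05. Some of these genes were named for an extreme interaction or an extreme difference at 4.5 hpf, so the choice itself raised this share. Zfp36l1b was tested only through the DMSO libraries of 4.5 hpf, where it was high. Among all 12780 genes tested the interaction passed for 52.8%, and for 62.2% of those with a mean of at least 5 FPKM. The interaction was above 0 for lsm1 1.45, ago1 1.25, ago3a 1.12, lsm14b 1.11, lsm11 0.85, lsm4 0.74, btg3 0.73, cnot10 0.72, zfp36l2 0.54, parn 0.52, cnot4b 0.52, dicer1 0.50, tnrc6a 0.49, tob1b 0.43, ago2 0.36, cnot4a 0.21 and igf2bp3 0.13. It was below 0 for smg1 −0.81, ybx1 −0.81, zfp36l1b −0.70, elavl1a −0.60, elavl1b −0.60, lsm6 −0.51, dcp2 −0.50, igf2bp1 −0.49, btg1 −0.45, ythdf2 −0.39, xrn2 −0.26, pum2 −0.25, patl1 −0.24, xrn1 −0.22, ythdf1 −0.21, khsrp −0.20 and upf1 −0.16. Leaving out 1 library ended the call of ago2 in 8 of 16 fits (adjusted p up to 0.0625) and of xrn1 in 7 of 16 fits (adjusted p up to 0.0847).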

How the results depend on the processing

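Depth limits the members at the lowest levels, and 4 libraries a group limit the precision. At 3.5 hpf the count of members lower in TBBPA was 3 and became 1 with no filter, TPM, total-count scaling and the replicate block. At 4.5 hpf the count lower, 35, became 21 with TPM and 23 with total-count scaling, and for the interaction 27 became 15 under both. The count above 0 for the interaction, 23, became 32 with TPM and 31 with total-count scaling. For the change in TBBPA the count rising, 8, became 5 with no filter. Leaving out 1 library gave, for higher and lower members, 5 to 9 and 0 to 3 at 3.5 hpf, 25 to 28 and 32 to 35 at 4.5 hpf, 32 to 34 and 25 to 28 for the change in DMSO, 4 to 7 and 5 to 11 for that in TBBPA, and 22 to 25 and 25 to 28 for the interaction. At 2 hpf it was 0 throughout.

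Over all members the sign differed among the 4 scalings for 9 at 4.5 hpf, cnot2 and cnot11 included, for 7 in DMSO and for 10 in the interaction. Among the named genes with a call in at least 1 of the scalings compared, TPM reversed the log2 difference at 4.5 hpf for cnot8 (0.0566), tob1a (0.13), upf1 (0.0198) and edc3 (0.15), that in DMSO for cnot8 (−0.12), pan2 (−0.13) and edc3 (−0.14), and the interaction for upf1 (0.0019). With total-count scaling it reversed for cnot8 (0.0222) and tob1a (0.10) at 4.5 hpf and for pan2 (−0.10) in DMSO. The cause was not tested. The labels do not state that replicate numbers pair the libraries. Deviations from the group means correlated at −0.07 to 0.16 for equal numbers. The highest correlation of each library with an unequal number was 0.02 to 0.12. Such weak correlations cannot exclude pairing, and the replicate block is given here alone.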
